A study of Mus musculus with 20 samples.

Results

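The hypoxia-inducible factors (HIFs) and the enzymes that control them were followed at the RNA level in brains of *Winnie* and C57BL/6 mice through 9 genes, all of them measured among the 17211 genes listed. *Hif3a* was chosen on its measured values in this genotype comparison, and the other 8 genes were added as its paralogs, its partner and its regulators. *Winnie* mice carry a missense mutation in *Muc2*, the gene of the main intestinal mucin, and develop chronic colitis spontaneously without any treatment. C57BL/6 mice from the breeding colony of the same institute served as the controls, and both groups were 14 weeks old and untreated. There were 10 brains per genotype, 5 labelled female and 5 labelled male in each, and RNA from each brain, that of a separate mouse, gave 1 polyA library. Because a brain mixes many cell types, fewer cells of a type and less RNA per cell cannot be told apart in any of the values that follow.

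HIFs are transcription factors made of an oxygen-sensitive alpha subunit (*Hif1a*, *Epas1*, which is also known as *Hif2a*, or *Hif3a*) and a stable partner (*Arnt*). At normal oxygen the prolyl hydroxylases encoded by *Egln1*, *Egln2* and *Egln3* modify the alpha subunits. The product of *Vhl* then binds them within a ubiquitin ligase, and they are degraded. The asparagine hydroxylase encoded by *Hif1an* keeps the products of *Hif1a* and *Epas1* from their co-activators. At low oxygen the alpha subunits persist, pair with the partner and bind a short DNA core in genes of glucose uptake, glycolysis and vessel growth. *Hif3a* is best known as the odd paralog, because several of its splice forms lack the activation domain and hold the other alpha subunits back, and *Hif3a* and *Egln3* RNA are themselves raised by HIF in many tissues. The oxygen-dependent steps act on protein, which RNA sequencing does not measure.

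The core bound by HIFs is ACGTG or GCGTG, and both were searched on both strands in the 250 bases before each start site. The sequences are from RefSeq on GRCm38.p6, printed 5′ to 3′ on the strand of the gene, with every match to the core, on either strand, in capitals. A promoter entry was found for 8 of the 9 genes. The promoter of *Hif3a* is shown because it is the gene that differed most between genotypes, that of *Hif1a* because it is the paralog set against it, and that of *Egln3* because it is the hydroxylase gene best known as a HIF target.
Hif3a (chr7:17062428-17062677, minus strand): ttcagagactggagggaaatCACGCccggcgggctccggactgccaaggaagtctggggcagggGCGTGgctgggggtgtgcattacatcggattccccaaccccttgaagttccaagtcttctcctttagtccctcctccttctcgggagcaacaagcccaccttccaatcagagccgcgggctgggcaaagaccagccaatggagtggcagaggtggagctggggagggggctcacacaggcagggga
Hif1a (chr12:73907617-73907866, plus strand): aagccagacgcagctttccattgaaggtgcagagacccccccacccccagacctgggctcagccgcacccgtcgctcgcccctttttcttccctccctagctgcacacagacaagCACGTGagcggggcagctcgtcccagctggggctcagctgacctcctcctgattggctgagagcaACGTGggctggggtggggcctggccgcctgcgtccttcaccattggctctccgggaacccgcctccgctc
Egln3 (chr12:54203875-54204124, minus strand): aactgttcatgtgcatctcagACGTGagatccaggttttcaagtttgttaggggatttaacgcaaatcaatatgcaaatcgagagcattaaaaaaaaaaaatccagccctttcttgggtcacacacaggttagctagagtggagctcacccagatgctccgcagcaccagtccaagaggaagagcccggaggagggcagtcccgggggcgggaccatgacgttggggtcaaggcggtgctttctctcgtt

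The *Hif3a* promoter held 2 cores, with first bases at -230 and -186 from the start site, *Egln3* held 1 at -229, and *Hif1a* held 3, of which the 2 at -135 and -134 are the same palindrome read on both strands. *Arnt* held 1, *Egln1* held 2, and *Egln2*, with 2 start sites, held 4 and 1. *Vhl* and *Hif1an* held 0. A core of this length is common, since 38.6% of the 32851 promoters of the same length held at least 1. These matches describe the letters of the windows and were not measured as binding sites.

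In all 20 brains the listed genes together held 16540303 to 23923769 reads, so that 1 read corresponded to 0.0418 to 0.0605 CPM (counts scaled to a common total in every library). Library numbers in the labels run first through the C57BL/6 and then through the *Winnie* samples, so library order and genotype cannot be told apart. *Xist* and *Ddx3y*, which mark RNA from female and male animals, went with the sex label in all 10 *Winnie* libraries and against it in 9 of 10 C57BL/6 libraries, with replicate 4 the exception. Results are therefore also given within the 11 libraries with *Xist* RNA (6 C57BL/6 and 5 *Winnie*) and the 9 with *Ddx3y* RNA (4 C57BL/6 and 5 *Winnie*). *Muc2* is not among the genes listed, so the genotype label could not be checked by its RNA. Expression was compared between genotypes on log2(CPM + 0.5) with limma across all 17211 genes, and the false discovery rate (FDR) is the Benjamini-Hochberg adjusted p over all of them. At an FDR under 0.05, 434 genes (2.52%) were called, 261 higher (1.52%) and 173 lower (1.01%) in *Winnie* mouse brains, and at an unadjusted p under 0.05 there were 3030 (17.6%). At the stricter threshold in the study's methods, an FDR under 0.001 with a 1.5-fold change, 0 genes were called with limma, 1 with edgeR and 12 with DESeq2 on the recovered reads.

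*Hif3a* RNA was 2.27-fold as high in *Winnie* mouse brains as in brains from C57BL/6 mice, while *Epas1* was 1.14-fold and *Hif1a* 1.09-fold as high, and *Arnt* and the 5 regulators lay within 0.93-fold to 1.02-fold. Of the 9 genes, 2 had an FDR under 0.05 (*Hif3a* and *Epas1*, both higher), against 2.52% of all genes, and nothing is read from this count because *Hif3a* was selected on the same contrast. On the log2 scale 4 genes were higher (the 3 alpha subunits and *Arnt*) and 5 lower (all 5 regulators), with a median of -0.06 against 0.00 for all genes.

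*Hif3a* (ENSMUSG00000004328, GRCm38 chr7:17031507-17062427, minus strand) was measured with 74 to 516 reads per brain. In C57BL/6 its lowest, median and highest level was 4.17, 7.39 and 12.8 CPM, and in *Winnie* 11.04, 16.997 and 28.0 CPM. All 10 *Winnie* mouse brains lay above the C57BL/6 median and 8 lay above the highest C57BL/6 brain, but the groups overlapped, since *Winnie* replicates 4 (11.04 CPM) and 10 (12.7 CPM) lay under C57BL/6 replicate 2 (12.8 CPM). The *Winnie* mean was 18.1 ± 5.48 CPM and the C57BL/6 mean 7.99 ± 3.08 CPM (SD, n = 10 each). The log2 fold change of 1.17 (SE 0.213) ranked 2 of 17211 genes by size, after *Plin4*, a lipid droplet protein gene, at 1.91. These values are the ones that chose *Hif3a* and carry no test.
Spread within a genotype was wide for *Hif3a* and narrow for its paralogs. The SD of *Hif3a* was 38.5% of its mean in C57BL/6 and 30.2% in *Winnie* mouse brains, against 7.29% and 5.06% for *Hif1a* and 10.4% and 6.38% for *Epas1*. In *Winnie* the highest brains were replicates 6 and 7 (28.0 and 25.9 CPM), both with *Ddx3y* RNA, and in C57BL/6 the lowest were replicates 7, 5 and 10 (4.17, 4.70 and 5.08 CPM), of which replicate 5 has *Ddx3y* RNA and the other two *Xist* RNA. The log2 fold change was 1.17 (SE 0.243) among libraries with *Xist* RNA and 1.10 (SE 0.357) among those with *Ddx3y* RNA.

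**Figure D1:**
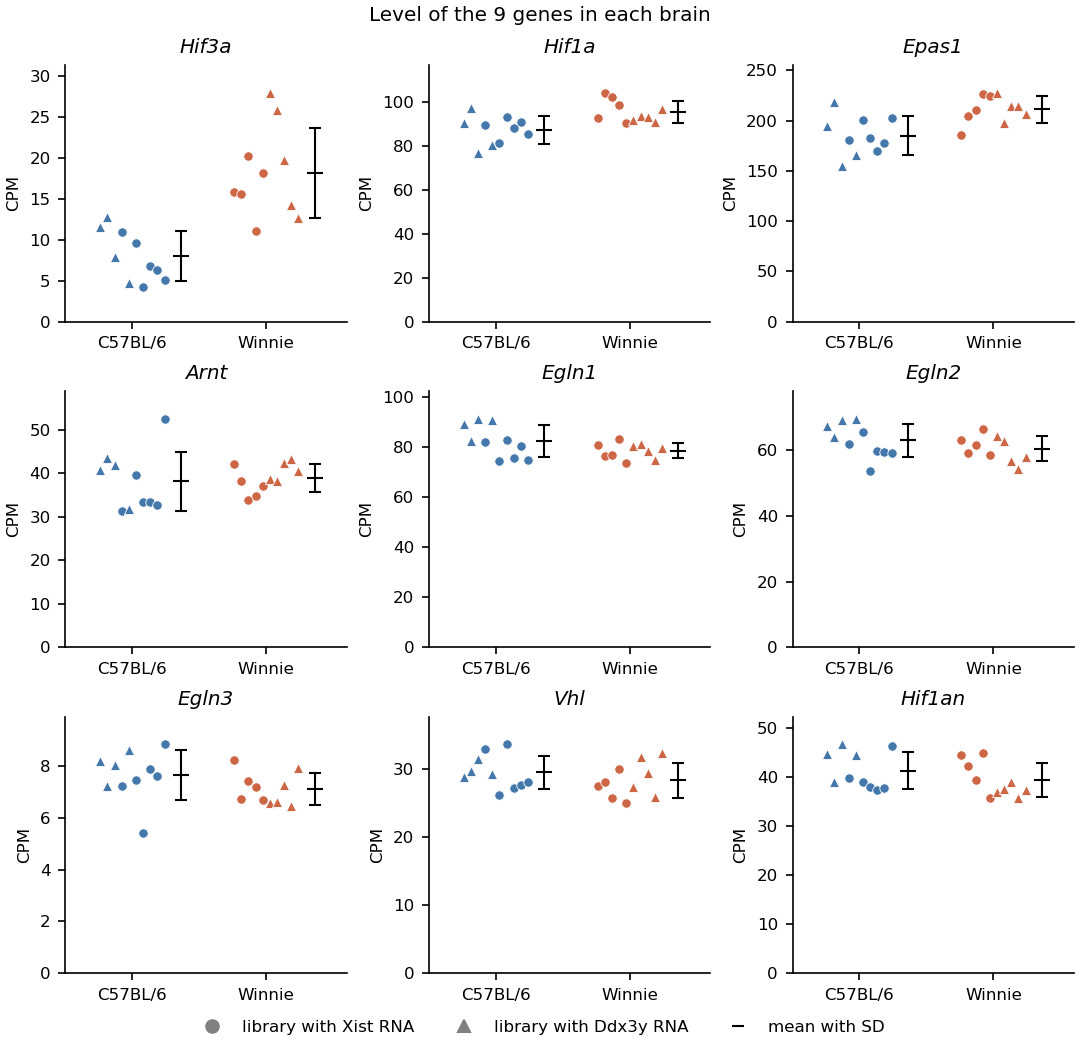
Each panel plots 1 gene in CPM on an axis from 0, with 1 point per brain for 10 C57BL/6 (blue) and 10 *Winnie* (orange) mice, circles for libraries with *Xist* RNA, triangles for libraries with *Ddx3y* RNA, and bars for the mean and SD. *Hif3a* in *Winnie* mouse brains runs from 11.04 to 28.0 CPM against 4.17 to 12.8 CPM in C57BL/6, and the groups overlap for each of the other 8 genes as well.

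*Epas1* (ENSMUSG00000024140, chr17:86753700-86833410, plus strand), the alpha subunit gene known for its expression in endothelium and astrocytes, was higher in *Winnie* mouse brains. Its lowest, median and highest level was 155, 182 and 219 CPM in C57BL/6 and 186, 212 and 228 CPM in *Winnie*. All 10 *Winnie* mouse brains were above the C57BL/6 median and 3 were above the highest C57BL/6 brain. The log2 fold change was 0.20 (SE 0.0505, FDR 0.0355, limma). This call sat near the threshold. It was lost when any 1 of 11 brains was left out (C57BL/6 replicates 3, 4, 5, 8 and 9, or *Winnie* replicates 3, 4, 5, 6, 8 and 9), with an FDR of up to 0.0806 without C57BL/6 replicate 5. Among libraries with *Xist* RNA alone the log2 fold change was 0.18 (FDR 0.278) and among those with *Ddx3y* RNA alone 0.22 (FDR 0.269).
*Epas1* moved with vessel and astrocyte markers from brain to brain. After the mean of each genotype was subtracted, its Pearson correlation over the 20 brains with the summed level of 7 endothelial markers was 0.85, with 6 pericyte markers 0.72 and with 7 astrocyte markers 0.78. With the summed markers of other cell types it lay between -0.42 (neurons) and 0.41 (oligodendrocytes). *Arnt* had 0.56 with the endothelial, 0.41 with the pericyte and 0.45 with the astrocyte sum. With the sums of other cell types *Arnt* lay between -0.39 (neurons) and 0.49 (erythroid cells). The endothelial sum ran from 134 to 178 CPM in C57BL/6 and from 143 to 170 CPM in *Winnie*, and the ratio of the means was 1.05. The pericyte sum ran from 169 to 208 and from 175 to 210 CPM (ratio 1.04), and the astrocyte sum from 3751 to 4501 and from 3869 to 4479 CPM (ratio 1.02). None of these markers was at 0 in any brain. Of the 7 endothelial markers 5 were higher in *Winnie* by the sign of the log2 fold change, but the only one called, the tight junction gene *Cldn5*, was lower (log2 fold change -0.47, FDR 0.00331). Of the 6 pericyte markers 4 were higher by sign, and only *Abcc9* was called, higher (0.29, FDR 0.0468). Of the 7 astrocyte markers 4 were higher by sign, and only *Gjb6* was called, higher (0.22, FDR 0.0384). The median log2 fold change was 0.01 for the endothelial, 0.07 for the pericyte and 0.005 for the astrocyte markers. The *Abcc9* call was lost without any 1 of C57BL/6 replicates 3, 4, 5, 8 and 9 or of *Winnie* replicates 2 to 10 (FDR up to 0.0960) and with edgeR (FDR 0.0628), and the *Gjb6* call without any 1 of C57BL/6 replicates 3, 4, 5, 7, 8 and 9 or of *Winnie* replicates 2, 3, 6, 7 and 8 (FDR up to 0.0768). The part of these cell types in the *Epas1* difference was not tested.

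*Hif1a* (ENSMUSG00000021109, chr12:73901375-73947530, plus strand), the broadly expressed alpha subunit gene, had 76.7, 89.1 and 97.5 CPM as the lowest, median and highest C57BL/6 brain and 90.4, 93.7 and 104 CPM in *Winnie*. All 10 *Winnie* mouse brains lay above the C57BL/6 median, yet 7 of them lay within the C57BL/6 range. The log2 fold change of 0.13 (SE 0.0414) had an FDR of 0.0845 with limma and 0.0506 with edgeR, and was past the threshold with DESeq2 (FDR 0.0235) and with limma when C57BL/6 replicate 2 was left out (FDR 0.0468). Exons of *Hif1a* overlap the antisense gene *Gm15283* and the same-strand gene *Gm49321*, and the strand setting of the counting is not given in the sources used here, so reads of these genes cannot be told apart.

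*Arnt* (ENSMUSG00000015522, chr3:95434388-95497240, plus strand), the partner of all 3 alpha subunits, had a log2 fold change of 0.04 (SE 0.0772, FDR 0.822). It ran from 31.5 to 52.6 CPM in C57BL/6, with a median of 36.6, and from 33.9 to 43.3 CPM in *Winnie*, with a median of 38.6. C57BL/6 replicate 10 was the highest at 52.6 CPM, and its removal gave a log2 fold change of 0.10.

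The regulators were all slightly lower and none was called. *Egln1* (ENSMUSG00000031987, chr8:124908587-124949324, minus strand), the main oxygen-sensing prolyl hydroxylase gene, had a median of 82.1 CPM in C57BL/6 and 79.1 CPM in *Winnie* (log2 fold change -0.06, FDR 0.434). *Egln2* (ENSMUSG00000058709, chr7:27158658-27166802, minus strand) had 63.0 and 60.4 CPM (-0.06, FDR 0.559), and *Egln3* (ENSMUSG00000035105, chr12:54178981-54203860, minus strand), the hydroxylase gene raised by HIF in many tissues, had 7.74 and 6.95 CPM (-0.09, FDR 0.524). *Vhl* (ENSMUSG00000033933, chr6:113623959-113631633, plus strand), which encodes the part of the ubiquitin ligase that recognises hydroxylated alpha subunits, had 29.1 and 27.9 CPM (-0.06, FDR 0.617). *Hif1an* (ENSMUSG00000036450, chr19:44562850-44576274, plus strand), the asparagine hydroxylase gene, had 39.5 and 38.4 CPM (-0.07, FDR 0.548). The 95% confidence intervals of these 5 log2 fold changes reached from -0.24 to 0.05, both ends being those of *Egln3*, so that smaller changes were within the error. An exon of *Egln2* overlaps *Cyp2t4* on the opposite strand.

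Per kilobase of exon, the scale on which genes can be compared, *Hif3a* was the least abundant of the 9 in C57BL/6 at 1.19 ± 0.459 CPM per kb (SD, n = 10). The order upwards from it was *Egln3* (2.87 ± 0.358), *Arnt* (4.77 ± 0.851), *Hif1an* (6.26 ± 0.569), *Vhl* (9.85 ± 0.823), *Hif1a* (14.9 ± 1.08), *Egln2* (22.5 ± 1.81), *Egln1* (22.9 ± 1.78) and *Epas1* (33.1 ± 3.45). *Egln1* and *Egln2* did not differ beyond their spread, with *Egln1* above *Egln2* in 7 of 10 C57BL/6 and 5 of 10 *Winnie* mouse brains. The ranges of *Hif1an* and *Arnt* over the C57BL/6 brains also overlapped, although *Hif1an* was above *Arnt* within each of the 10. *Egln3* was above *Hif3a* in all 10 C57BL/6 brains but in only 5 of 10 *Winnie* mouse brains, where the means were 2.67 ± 0.228 and 2.703 ± 0.817 CPM per kb. The order of the other genes was the same in both genotypes.

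Of the alpha subunit transcripts on this per-length scale, *Epas1* made up 67.3% ± 1.75, *Hif1a* 30.3% ± 1.84 and *Hif3a* 2.40% ± 0.811 in C57BL/6 (SD, n = 10). In *Winnie* mouse brains the shares were 66.6% ± 1.89, 28.7% ± 1.82 and 4.76% ± 1.37. The *Hif3a* share ran from 1.26% to 3.32% in C57BL/6 and from 2.79% to 7.01% in *Winnie*, with 9 of 10 *Winnie* mouse brains above the highest C57BL/6 brain and replicate 4 (2.79%) within the C57BL/6 range. Set against its paralogs in each brain, the log2 level of *Hif3a* minus the mean of *Hif1a* and *Epas1* was -3.99 ± 0.507 in C57BL/6 and -2.99 ± 0.429 in *Winnie*, a difference of 1.01. These shares use the contrast that chose *Hif3a* and carry no test.

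**Figure D2:**
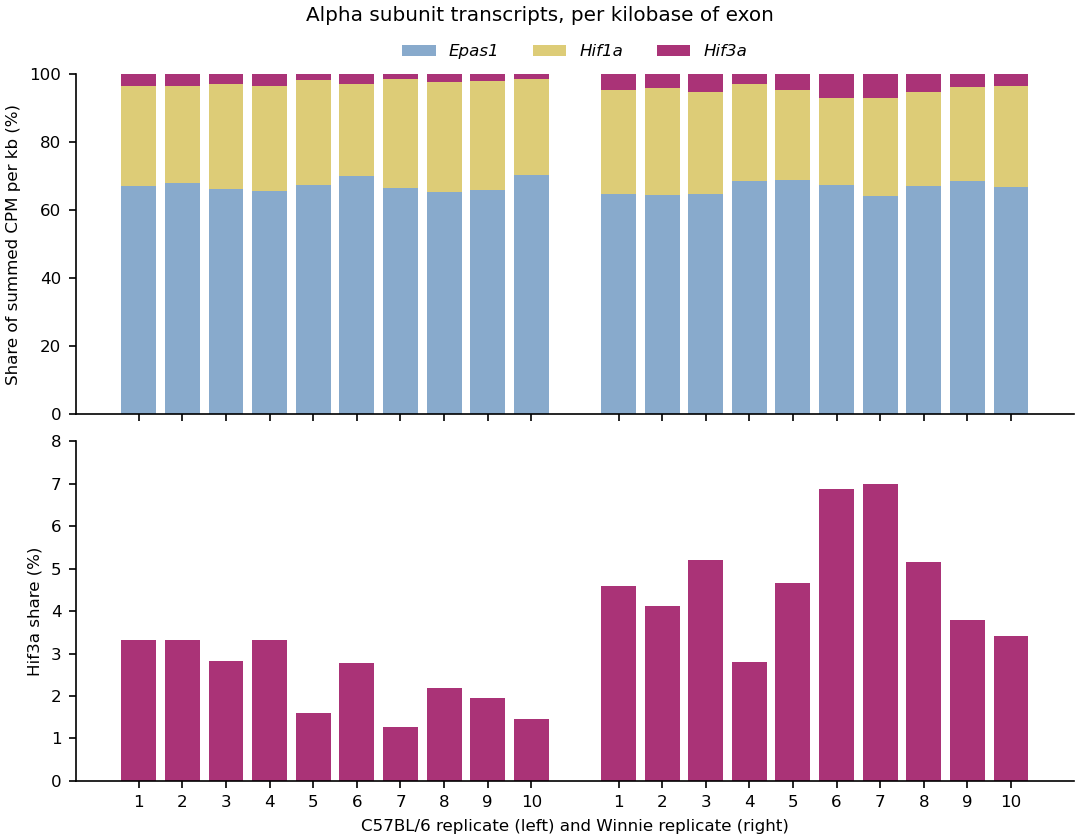
Stacked bars from 0 to 100% give the share of *Epas1*, *Hif1a* and *Hif3a* in their summed CPM per kilobase of exon, 1 bar per brain, with 10 C57BL/6 brains on the left and 10 *Winnie* mouse brains on the right. The lower panel enlarges the *Hif3a* share on an axis from 0 to 8%, where 9 *Winnie* bars stand above the highest C57BL/6 bar at 3.32%.

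Whether the 9 genes vary with sex was read within *Winnie*, where labels and *Xist* or *Ddx3y* RNA went together. Library numbers in *Winnie* run first through the labelled females and then through the males, so library order and sex cannot be told apart there. Between 5 labelled male and 5 labelled female *Winnie* mouse brains, 0 of the 9 genes were called (0.116% of all genes were) and 1 had an unadjusted p under 0.05, *Hif1an*, against 9.81% of all genes. *Hif1an* was 37.4 ± 1.16 CPM in males and 41.5 ± 3.81 CPM in females (log2 difference -0.14, limma, FDR 0.479). *Hif3a*, for which this comparison is independent of its choice, was 20.1 ± 6.80 CPM in males and 16.2 ± 3.44 CPM in females (log2 difference 0.27, SE 0.256, FDR 0.833), a log2 difference close to its SE.

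The genotype difference itself was compared between the 2 kinds of library with an interaction term. None of the 9 genes was called (0.00581% of all genes were), and 3 had an unadjusted p under 0.05, where 5.9% of all genes did. *Hif1an* had a log2 fold change of -0.22 among libraries with *Ddx3y* RNA and 0.06 among those with *Xist* RNA (interaction p = 0.00690, FDR 0.682, limma). *Egln2* had -0.19 and 0.04 (p = 0.00910, FDR 0.725, limma), and *Egln1* had -0.16 and -0.00 (p = 0.0343, FDR 0.821, limma). *Egln3* had -0.19 and -0.02 (p = 0.235, FDR 0.936, limma). *Egln1* was 88.4 ± 4.10 CPM in the 4 C57BL/6 libraries with *Ddx3y* RNA and 78.3 ± 3.73 CPM in the 6 with *Xist* RNA, while in *Winnie* the means of the 5 and 5 libraries were 79.0 and 78.2 CPM. These 4 C57BL/6 libraries are all labelled female. For *Hif3a* the interaction was -0.06 (SE 0.431).

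**Figure D3:**
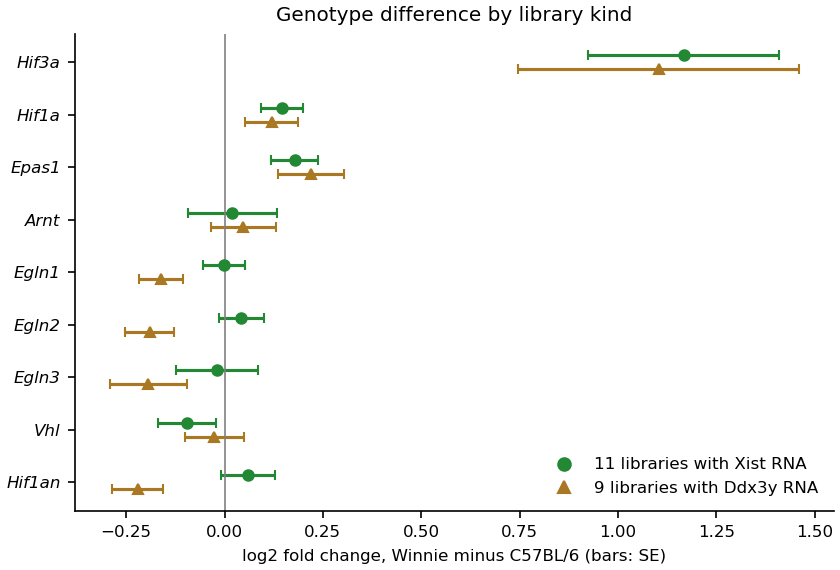
Points give the log2 fold change of each of the 9 genes, *Winnie* minus C57BL/6, with bars for the SE, from 11 libraries with *Xist* RNA (green circles) and from 9 with *Ddx3y* RNA (brown triangles). *Hif3a* stands at 1.17 and 1.10, and *Egln1*, *Egln2* and *Hif1an* lie below 0 among libraries with *Ddx3y* RNA and near 0 among those with *Xist* RNA.

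Other genes were read from a list of 28 cofactors and relatives, of which 27 were measured. The list holds 8 further genes of the protein family of *Arnt*, such as *Arnt2* and *Arntl*. Of these relatives 7 were measured, 1 was called (lower) and 2 had an unadjusted p under 0.05. Over the whole list 1 gene was called higher and 1 lower (7.41%, beside 2.52% of all genes). An unadjusted p under 0.05 was found for 9 (33.3%, beside 17.6% of all genes). The median log2 fold change of the list was -0.01 against 0.00 for all genes. The gene called higher was *Ep300*, a histone acetyltransferase that the activation domain of the *Hif1a* and *Epas1* products recruits. Its lowest, median and highest level was 86.6, 96.1 and 113 CPM in C57BL/6 and 103, 113 and 120 CPM in *Winnie*. The log2 fold change of *Ep300* was 0.18 (SE 0.0436, FDR 0.0222). All 10 *Winnie* mouse brains were above the C57BL/6 median. Its paralog *Crebbp* was also above the C57BL/6 median in all 10, with a log2 fold change of 0.12 that was not called (FDR 0.142), but was without C57BL/6 replicate 6 (FDR 0.0430). The *Ep300* call was lost without C57BL/6 replicate 5 (FDR 0.0552), and within a single kind of library (FDR 0.186 with *Xist* RNA and 0.269 with *Ddx3y* RNA).
The gene called lower was *Arntl*, a clock gene of the same protein family as *Arnt*, with 27.0, 31.0 and 39.0 CPM in C57BL/6 and 23.9, 27.0 and 28.7 CPM in *Winnie* (log2 fold change -0.23, SE 0.0535, FDR 0.0184). All 10 *Winnie* mouse brains were below the C57BL/6 median. Within a single kind of library *Arntl* was not called (FDR 0.213 with *Xist* RNA and 0.194 with *Ddx3y* RNA). The 4 partners of *Vhl* in the ubiquitin ligase were all lower by sign and none was called, with *Tceb1* (elongin C) at -0.12 (FDR 0.128 with limma, 0.0360 with DESeq2, 0.0392 without C57BL/6 replicate 6). *Arnt2*, the form of *Arnt* that is abundant in neurons, was at 0.05 (FDR 0.474).

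Genes that HIF is known to induce were read from a list of 50, of which 49 were measured. Of these 1 was called higher and 1 lower (4.08%, beside 2.52% of all genes), 10 had an unadjusted p under 0.05 (20.4%, beside 17.6% of all genes), 20 had a log2 fold change above 0 and 29 below, and the median was -0.03 against 0.00 for all genes. *Slc2a1*, the glucose transporter of the blood-brain barrier and of astrocytes, was higher, with 77.9, 89.8 and 125 CPM as the lowest, median and highest C57BL/6 brain and 106, 128 and 146 CPM in *Winnie*. In *Winnie* 7 brains were above the highest C57BL/6 brain, and the log2 fold change was 0.45 (SE 0.0773, FDR 0.00551). Among libraries with *Ddx3y* RNA alone it was not called, with a log2 fold change of 0.34 (FDR 0.276).
*Slc2a1* belongs to the part of the list for glucose transport and glycolysis. Of its 18 genes 14 had a log2 fold change below 0 and 4 above, beside 8437 below and 8774 above among all genes, a difference in signs that was not tested. *Hk2*, a hexokinase gene, was at 0.19 and was not called (FDR 0.194). *Tpi1*, a glycolytic isomerase, was called lower (338 ± 20.9 against 306 ± 15.8 CPM; log2 fold change -0.14, FDR 0.0390). This call was lost when any 1 of 13 brains was left out (C57BL/6 replicates 3, 4, 5, 8 and 9, or *Winnie* replicates 1, 2, 3, 5, 7, 8, 9 and 10), with an FDR of up to 0.0910. The 6 genes of mitochondria and mitophagy were all below 0 with none called, the 8 measured genes of vessels, oxygen supply and iron had 5 above 0, and the 17 of pH, matrix and others had 11 above 0. *Pgk1*, a glycolytic kinase, was at -0.23 and was not called with limma (FDR 0.0983), although it was with DESeq2 (FDR 0.0263). Named here after their values were seen, the textbook targets *Vegfa* (-0.03, FDR 0.880), *Ldha* (-0.10, FDR 0.214), *Pdk1* (-0.03, FDR 0.775) and *Bnip3* (-0.08, FDR 0.197) were not called with limma. Of the 20 targets above 0 only *Slc2a1* was called with limma. Also named after their values were seen, *Kdm3a* (0.13, FDR 0.170) and *Adm* (0.07, FDR 0.782) were above 0 and not called. Several glycolysis genes have near-identical processed copies elsewhere in the genome, so their levels are uncertain where such reads were discarded or split.

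**Figure D4:**
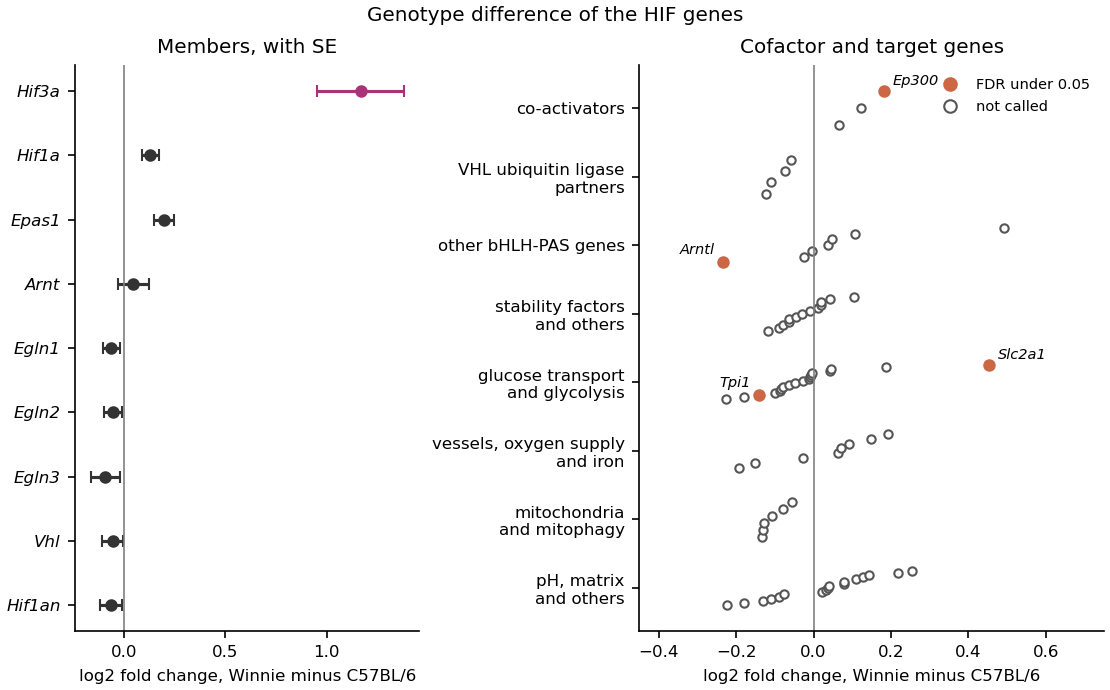
The left panel gives the log2 fold change of the 9 genes, *Winnie* minus C57BL/6, with bars for the SE, and the right panel gives 1 point per measured gene of the cofactor list (4 upper rows) and of the HIF target list (4 lower rows), filled at an FDR under 0.05. *Hif3a* stands at 1.17 and the other 8 between -0.09 and 0.20, and in the lists *Ep300* and *Slc2a1* are filled above 0 and *Arntl* and *Tpi1* below.

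Covariation from brain to brain does not use the difference of the genotype means once the mean of each genotype is subtracted. It is given as a description over 20 brains that share the scaling of CPM within a library. *Hif3a* followed neither *Hif1a* (Pearson r = 0.05, Spearman rho = 0.02) nor *Arnt* (r = 0.12, rho = 0.19) and followed *Epas1* only weakly (r = 0.27, rho = 0.24, and r = 0.13 without the 2 brains farthest from the median). Its correlation with the 5 regulators lay between -0.22 (*Hif1an*) and 0.34 (*Egln2*). The highest values among pairs of the 9 genes were r = 0.60 for *Egln1* and *Egln2*, 0.58 for *Egln3* and *Hif1an*, 0.57 for *Egln2* and *Hif1an*, and 0.54 for *Egln1* and *Vhl*. *Hif1a* and *Epas1* had r = 0.37, which fell to -0.08 without the 2 brains farthest from the median.

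The 5 genes whose pattern was most like that of *Hif3a*, among 15167 genes with a mean of at least 1 CPM, were *Map3k6*, a stress kinase gene (r = 0.85, rho = 0.89), *Zbtb16*, a zinc finger transcription factor gene (r = 0.82, rho = 0.83), *Xdh*, the xanthine dehydrogenase gene (r = 0.81, rho = 0.73), *Plin4* (r = 0.81, rho = 0.82) and *Slc2a1* (r = 0.81, rho = 0.79). Since these genes were chosen for r over the same brains, the values within each genotype are a description, with r of 0.83 to 0.89 over the 10 C57BL/6 brains and 0.71 to 0.92 over the 10 *Winnie* mouse brains for all 5. Without the 2 brains farthest from the median of *Hif3a*, r was 0.73 to 0.87. *Map3k6* had 2.63, 3.85 and 5.05 CPM as the lowest, median and highest C57BL/6 brain and 3.84, 5.40 and 8.80 CPM in *Winnie*, and *Xdh* had 3.49, 5.77 and 9.33 CPM and 7.49, 11.1 and 15.7 CPM. *Plin4* spread most, with 1.47, 3.04 and 7.29 CPM in C57BL/6 and 4.90, 12.4 and 44.4 CPM in *Winnie*.
Of these 5 genes, 4 were called higher in *Winnie* mouse brains (1.52% of all genes were), which *Zbtb16* was not (log2 fold change 0.42, FDR 0.190), and the log2 fold changes of the others were 0.58 for *Map3k6* (FDR 0.0157), 0.86 for *Xdh* (FDR 0.0112), 1.91 for *Plin4* (FDR 0.0163) and 0.45 for *Slc2a1*. Genes that covary with *Hif3a* share its deviations between brains, and *Hif3a* was chosen on this contrast, so nothing is read from this count. Among libraries with *Ddx3y* RNA alone none of the 4 genes higher in *Winnie* mouse brains was called (FDR 0.276 to 0.365), and among those with *Xist* RNA alone *Plin4* was not (FDR 0.0821). Among 47 HIF targets with at least 1 CPM, *Slc2a1* stood alone in following *Hif3a* at an r over 0.5 (2.13%, against 1.62% of all genes), the next being *Hk2* at 0.49, and the median r over these targets was 0.01. *Kdr*, a receptor of vascular endothelial growth factor, went the opposite way at r = -0.73. The 5 genes with the lowest r were *Gm2199* (-0.82), *Ddx11* (-0.80), *Myb* (-0.76), *Ccdc153* (-0.75) and *Tmem231* (-0.74), 3 of them at a mean under 2 CPM, and none of the 5 was called between genotypes.

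**Figure D5:**
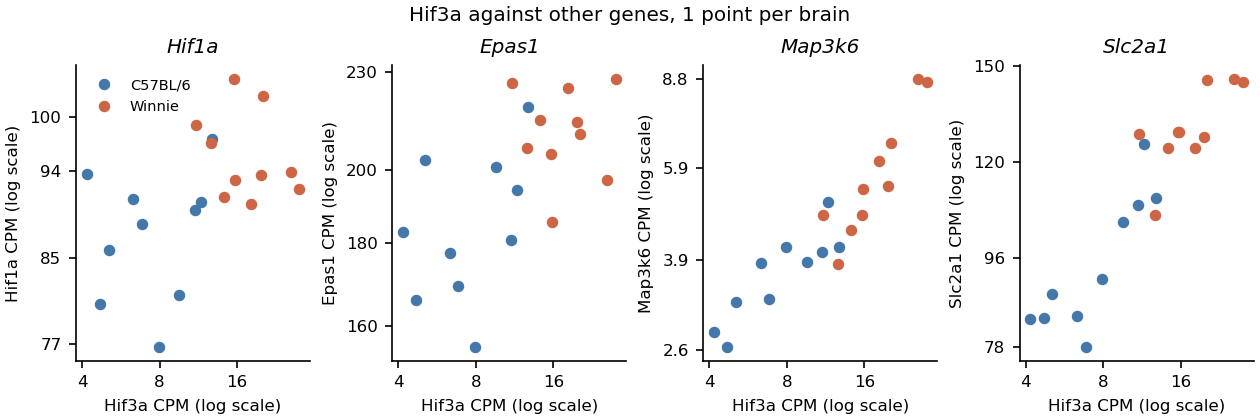
Each panel plots the CPM of 1 gene against that of *Hif3a* on log2-spaced axes, 1 point per brain, blue for 10 C57BL/6 and orange for 10 *Winnie* mice. *Map3k6* and *Slc2a1* rise with *Hif3a* in both genotypes (r = 0.85 and 0.81 after the genotype means were subtracted), whereas *Hif1a* and *Epas1* are scattered (r = 0.05 and 0.27).

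The paralogs were most like other genes. *Epas1* went with *Nfia* (r = 0.86), *Iqsec3* (0.84) and *Adgrf5*, an endothelial adhesion receptor gene (0.83), and of these *Adgrf5* was called higher in *Winnie* mouse brains (log2 fold change 0.28, FDR 0.0194), though not within a single kind of library (FDR 0.128 and 0.277). *Hif1a* went with *Clcn5* (0.88), *Lhfpl3* (0.86) and *Lrig1* (0.86), and *Arnt* with *Nktr* (0.96), *Dusp11* (0.94) and *Ogt* (0.94). None of the 6 was called.
Against the summed markers of other cells, *Hif3a* had r = 0.13 with endothelium, 0.05 with pericytes, -0.09 with astrocytes, 0.34 with neurons, -0.18 with oligodendrocytes, -0.49 with microglia, -0.55 with choroid plexus, -0.64 with ependyma, -0.14 with fibroblasts and 0.28 with erythroid cells. The choroid plexus sum ran from 725 to 1053 CPM in C57BL/6 and from 494 to 1007 CPM in *Winnie* (ratio of means 0.877), and the ependyma sum from 20.9 to 26.0 and from 16.04 to 27.7 CPM (0.957). The erythroid sum ran from 93.6 to 208 and from 40.6 to 150 CPM (0.846), and the microglia sum from 241 to 279 and from 222 to 296 CPM (0.942). Neurons (0.988), oligodendrocytes (0.970) and fibroblasts (1.01) had ratios near 1. In these 7 lists no marker was called, and none was at 0 in any brain. The part of any of these cell types in the *Hif3a* difference was not tested.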

How the data were processed

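PolyA libraries of brain RNA were sequenced as 100-base read pairs on an MGISEQ-2000RS. Per the study's methods and the labels, the RNAsik pipeline was run against GRCm38 and featureCounts gave reads per gene. The authors deposited CPM from Degust, the share of a library's listed reads that fall on a gene, scaled to the same total in each library. Every value is a whole number of reads within a tolerance of 0.1, so reads were recovered for edgeR 4.0.16 and DESeq2 1.42.0, run as alternatives. All 17211 genes reached 0.5 CPM in at least 4 samples. The labels and methods differ in number (the methods name 8 C57BL/6 and 6 *Winnie* brains), so all 20 labelled samples were used.

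Genotypes were compared with limma 3.58.1 (trend, robust) in R 4.3.3 on log2(CPM + 0.5), two-sided, with no covariate. CPM per kilobase used the union of exons in GENCODE M21. The 9 genes, the cofactor, target and marker lists and the tests were chosen with earlier results of these data known, and 1 gene of the target list is not reported here and is left out of its counts. Named genes are the 9, list genes called or among the 3 smallest p of a list, and genes ranked by correlation with each of the alpha subunits or *Arnt* after genotype means were removed. *Crebbp*, *Arnt2*, *Hk2*, *Kdr* and called markers were named after their values were seen. The limma, edgeR and DESeq2 fits were tested on simulated data. Alternatives were the pseudocount (0.1 or 1), a mean of at least 1 CPM, median-ratio and quantile scaling, sex as labelled or as *Ddx3y* against *Xist*, each kind of library alone, a replicate block and each sample left out. For the 9 genes, counting error alone (1 over the square root of the mean reads) would give a coefficient of variation of 1.58% to 8.63%, beside 3.92% to 38.5% observed between brains of a genotype. The closest was *Egln3* in *Winnie*, at 8.63% beside 8.54% observed.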

Additional observations from a re-analysis of the deposited data

Results flagged for a closer look

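A brain far from the other 9 of its group stood out for 2 of the 34 groups of values examined (Dixon's test for 10 samples), and chance alone flags about 1 in 20. *Egln3* in C57BL/6 replicate 7 was at 5.41 CPM, under all other C57BL/6 brains, and without it the log2 fold change of *Egln3* was -0.14 in place of -0.09. *Arntl* in C57BL/6 replicate 3 was at 39.0 CPM, above all other brains, and without it the log2 fold change of *Arntl* was -0.20 and still called.

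The genotype difference was compared between libraries with *Ddx3y* RNA and libraries with *Xist* RNA for 15 genes, and 3 of them had an unadjusted p under 0.05 of the interaction term, where 5.9% of all genes did. The difference (libraries with *Ddx3y* minus libraries with *Xist*, log2) was -0.16 for *Egln1*, -0.23 for *Egln2* and -0.28 for *Hif1an*. None passed the correction, with an FDR of 0.682 to 0.821 (limma), so a difference between the 2 kinds of library is not shown for any of them.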

How the results depend on the processing

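Across all genes 434 were called, and the count was 227 with a replicate block, 53 in libraries with *Xist* RNA alone, 5 in libraries with *Ddx3y* RNA alone, 977 with DESeq2, and 169 to 694 with 1 brain left out (lowest without C57BL/6 replicate 5, highest without C57BL/6 replicate 10). Of the 9 genes 2 were called, *Hif3a* and *Epas1*, and nothing is read from this count because *Hif3a* was chosen on this contrast. The count was 0 under the replicate block and within each kind of library, and 1 to 3 when 1 brain was left out. Of the cofactor list 2 genes were called, with 0 under the replicate block and within each kind of library. The count for this list was 4 with DESeq2, and 1 to 4 with 1 brain left out. Of the HIF targets 2 were called, 1 under the replicate block, 0 in libraries with *Ddx3y* RNA alone, 4 with DESeq2, and 1 to 2 with 1 brain left out. The libraries of 1 kind are fewer samples, and for the other settings the cause was not tested. Same-numbered samples did not deviate together (2 of 10 pairs had a correlation over 0.1 and 0 samples went best with their own number), so the numbers are not read as pairs.

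*Hif3a* kept its direction and was within 1 SE (0.213) of its log2 fold change of 1.17 under every alternative, with 1.08 to 1.25 when 1 brain was left out. *Hif3a* was not called under the replicate block or within either kind of library. These values carry no test, because *Hif3a* was chosen on this contrast. In libraries with *Xist* RNA alone the sign turned for *Egln2* (0.0425), *Hif1an* (0.0598) and *Vegfa* (0.00933), the last of which ran from -0.0499 to 0.0129 with 1 brain left out. It turned for *Gm2199* (0.00258), *Tmem231* (0.0461) and *Ogt* (0.0283) in libraries with *Ddx3y* RNA alone, and for *Tmem231* (0.00142) with *Ddx3y* against *Xist* as a covariate. With 1 brain left out *Tmem231* ran from -0.0284 to 0.0146, *Ogt* from -0.0206 to 0.0350 and *Lrig1* from -0.0293 to 0.0607. None of these was called in any of those settings. With 1 brain left out, *Abcc9* lost its call in 14 cases, *Tpi1* in 13, *Epas1* and *Gjb6* in 11 each and *Ep300* in 1, and *Abcc9* also lost it with edgeR (FDR 0.0628). Under the replicate block *Epas1* had an FDR of 0.0646, *Arntl* 0.0512, *Ep300* 0.0612, *Tpi1* 0.0795, *Xdh* 0.0530 and *Abcc9* 0.0849. Scaling did not move the median of all genes by more than 0.1 log2 units.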
